A study of Mus musculus with 6 samples.

Results

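The 10 endothelial and leukocyte adhesion genes described here were measured in the mouse retina after bright light: Pecam1, Cdh5, Vwf, Cldn5, Plvap, Kdr, Flt1, Tek, Icam1 and Vcam1. They were chosen by name, as markers of the vessel wall, its receptors and its adhesion molecules, with earlier results of these data known. All 10 were present among the 23420 genes of the count table, and 10 of 10 passed the filter on low counts in each of the 3 comparisons.

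Total retinal RNA was sequenced in 6 libraries, 2 for each of 3 groups. According to the sample labels the mice were of the strain CD1. The control group received no treatment. The light group was exposed to 10000 lux for 1 h and the retinas were taken on day 4 afterwards. The light plus minocycline group received the same exposure and, in addition, minocycline by intraperitoneal injection at 45 mg/kg on each of 4 days. Minocycline is a tetracycline antibiotic that crosses the blood-retina barrier and dampens microglial activation. The methods of the study differ from these labels: they name young adult BALB/cJ mice of both sexes, brighter light and additional injections at the start of treatment. The labels do not say whether the light group was injected with the solvent. Neither source names a transgene or a deletion. Whether a library came from 1 animal or from a pool is not given in the sources used here, so a p-value measures the spread between these libraries.

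The retina is supplied by an inner network of vessels whose endothelial cells are joined by tight junctions and form the inner blood-retina barrier. VEGF and the angiopoietins act on these cells through tyrosine kinase receptors. An inflamed endothelium displays ICAM-1 and VCAM-1, which bind integrins on leukocytes and let them arrest on and cross the vessel wall. Both adhesion molecules are also made by other cells: ICAM-1 by pigment epithelium and leukocytes, VCAM-1 by activated glia. Kdr, likewise, is transcribed in retinal neurons and Müller cells besides the endothelium. The count of a gene in whole retina sums over all these sources, and fewer cells of a type cannot be told apart from less RNA per cell.

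The sequences just before the transcription start are shown for the 2 genes that passed the test after light exposure, Icam1 and Kdr, and for Flt1, the sister receptor of Kdr, which did not. They are the 250 bases before the first transcribed base in RefSeq on GRCm38.p6, written 5′ to 3′ on the strand of the gene. The RefSeq table used here held 5 of the 10 genes (Icam1, Kdr, Flt1, Tek and Cldn5). The windows are chr9:21015690-21015939 on the plus strand for Icam1, chr5:75978456-75978705 on the minus strand for Kdr and chr5:147726012-147726261 on the minus strand for Flt1. Capitals mark a match to TTCNNNGAA, the core element bound by STAT factors, in Icam1, and a match to the NF-κB consensus in Kdr and Flt1. The NF-κB consensus was searched as GGGRNNYYCC (R is A or G, Y is C or T, N is any base). Sites that depart from it, such as those without GGG at the start, were not searched, in Icam1 or elsewhere.
Icam1: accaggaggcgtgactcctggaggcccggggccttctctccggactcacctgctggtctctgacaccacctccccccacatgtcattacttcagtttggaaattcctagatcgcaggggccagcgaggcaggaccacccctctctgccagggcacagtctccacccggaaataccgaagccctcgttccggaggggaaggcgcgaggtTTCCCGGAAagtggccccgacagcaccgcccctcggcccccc
Kdr: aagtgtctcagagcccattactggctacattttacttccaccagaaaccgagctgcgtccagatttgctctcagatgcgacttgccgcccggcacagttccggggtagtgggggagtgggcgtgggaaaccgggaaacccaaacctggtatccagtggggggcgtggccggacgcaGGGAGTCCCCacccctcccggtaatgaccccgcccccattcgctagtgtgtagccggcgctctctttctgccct
Flt1: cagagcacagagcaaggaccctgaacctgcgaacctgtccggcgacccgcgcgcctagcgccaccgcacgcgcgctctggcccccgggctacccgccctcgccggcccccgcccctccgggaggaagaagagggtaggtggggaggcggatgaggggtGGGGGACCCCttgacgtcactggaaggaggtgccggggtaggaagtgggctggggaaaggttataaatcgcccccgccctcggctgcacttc

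Of 5 motifs searched on both strands, the NF-κB consensus occurred in 7.25% of all 32851 windows of this length and TTCNNNGAA in 7.02%. The ETS core GGAA occurred in 93.4% of them, the longer ETS site CCGGAAGT, which contains GGAA, in 2.88% and TATAAA in 12.4%. The TTCNNNGAA match of Icam1 began 42 bases before the transcription start and overlapped 2 of its 7 GGAA matches. The NF-κB match began 74 bases before the start in Kdr and 92 bases before it in Flt1. Flt1 also held TATAAA, 31 bases before the start. The window of Cldn5 held 0 matches to the 5 motifs, and that of Tek held 2 matches to GGAA. Thus the window of Flt1, which did not pass the test, held the same kind of NF-κB match as that of Kdr, which did. A match describes these letters only.

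Total counts ranged from 15205930 in control 1 to 22856922 in minocycline A, and 16594 to 17421 genes had at least 1 count. The letters A and B are used because both minocycline columns carry the same header. The 10 rod genes examined summed to between 43750 and 105000 CPM in all 6 libraries, where CPM is the count scaled to the TMM-adjusted library size. Control 1 was set apart by 77778 counts of Xist, the transcript of the inactive X chromosome, against 25 to 188 in the others. The sex of the animals thus differed between the controls. Counts of calls against the controls are given below with and without each of them for the 10 endothelial and adhesion genes. For the further vascular gene lists this holds in light against control.

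Per kilobase of exon, the control retinas ranked the genes over a wide range (CPM per kb, mean ± SD, n = 2). Kdr, which encodes VEGF receptor 2, was highest at 20.9 ± 2.86. Flt1, which encodes VEGF receptor 1 and its soluble form, followed at 4.47 ± 0.0983. The counts of a gene do not separate the soluble form from the full receptor. Below both came Cldn5 (2.73 ± 1.54), Pecam1 (1.81 ± 0.000167), Plvap (1.77 ± 0.793) and Vcam1 (1.27 ± 0.752), whose order is not resolved because each of these neighbours overlapped the next between the libraries. Cdh5 (0.620 ± 0.104) and Tek (0.603 ± 0.132) overlapped in the same way. Icam1 (0.336 ± 0.160) and Vwf (0.177 ± 0.0551) were lowest, and were apart from their neighbours.

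The level of Kdr per kb was thus 33.7 times that of Cdh5, a gene largely restricted to endothelium. The ratio of Kdr to Cdh5 was 56.0 in the light group and 30.4 in the light plus minocycline group. After light exposure, Vcam1 moved from the sixth to the second place of the order, although its range of 4.57 to 10.3 CPM per kb overlapped that of Flt1, at 4.80 to 6.68. With minocycline its place was between Plvap and Pecam1, both of which it overlapped.

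**Figure D1:**
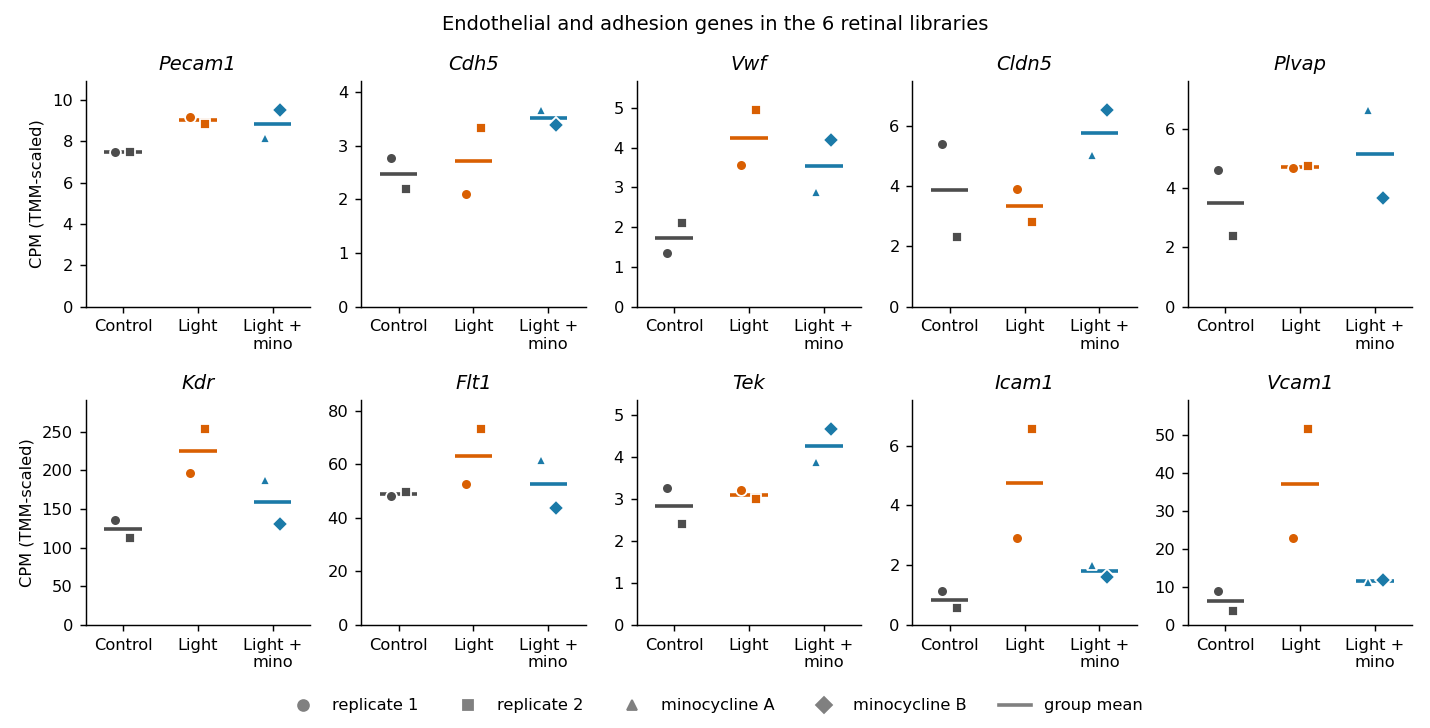
TMM-scaled CPM (vertical axes from 0, a separate scale for each gene) of the 10 genes in the control, light and light plus minocycline (mino) libraries, with points for libraries and lines for the mean of 2. Icam1, Vcam1 and Kdr are higher in both light libraries than in both controls, with light 2 above light 1 in each, whereas Cdh5, Tek and Cldn5 overlap between light and control.

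The first comparison asked which of these genes differed between light-exposed and control retinas. Icam1 and Kdr were higher after light exposure, by 5.58-fold and 1.83-fold, and passed the test. Vcam1 was 5.91-fold higher and Vwf 2.46-fold higher, but neither passed it. The constitutive endothelial genes Pecam1 and Cdh5 and the barrier gene Cldn5 did not pass the test either, with fold changes between 0.870 and 1.21. A gene was called when the adjusted p of edgeR, whose quasi-likelihood test was corrected over all 14349 genes tested, was below 0.05. Of the 10 genes, 2 were called higher and 0 lower, against 11.3% of all genes called in either direction and 7.52% called higher. With the cutoff of the study added, an absolute log2 fold change of 2 or more, 1 gene (Icam1) was called, against 2.92% of all genes. The groups did not overlap for 7 of the 10 genes, all higher after light exposure, against 60.9% of all genes. The median log2 fold change of the 10 genes was 0.40, and that of all genes tested 0.0025.

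Icam1 (chr9:21015985-21028817, plus strand of GRCm38, 7 exons), the endothelial ligand of the integrin LFA-1, had 16 and 8 counts in control 1 and 2, and 50 and 138 counts in light 1 and 2. Both light libraries lay above both controls, and light 2 stood well above light 1. The mean rose from 0.851 ± 0.406 to 4.74 ± 2.57 CPM (SD, n = 2 per group). The log2 fold change was 2.48 with a standard error of 0.52 and a 95% interval of 1.32 to 3.64 (edgeR adjusted p = 0.0209). Icam1 was not called without control 1 (adjusted p = 0.0772), without control 2 (0.157) or without light 2 (0.0724), with estimates of 3.06, 2.05 and 1.77.

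Vcam1 (chr3:116109949-116129688, minus strand, 11 exons), which binds the leukocyte integrin VLA-4, had 126 and 52 counts in control and 390 and 1084 in light retinas. Again the groups did not overlap, and light 2 was 2.26 times light 1 in CPM, about the ratio of 2.45 between the controls. The mean was 6.31 ± 3.75 CPM in control and 37.2 ± 20.3 CPM in light retinas (SD, n = 2). The log2 fold change of 2.56, with a standard error of 0.67 and an interval of 0.65 to 4.48, did not pass the test (edgeR adjusted p = 0.106). Several alternatives called it: the adjusted p was 0.0137 without robust estimation, 0.0189 with DESeq2, 0.0392 with all 6 libraries in 1 fit and 0.0493 with total library size. Its estimate was 3.34 without control 1, 2.05 without control 2 and 1.86 without light 2, where it was called (adjusted p = 0.00229). Over all alternatives the adjusted p ranged from 0.000852 without light 1 to 0.448 with the replicate number as a block. An exon of Icam1 overlaps an antisense gene, Gm47079, and an exon of Vcam1 overlaps Gm43109 on the opposite strand. The use of the strand in counting is not given in the sources used here, so counts of these overlapping stretches are uncertain.

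Kdr (chr5:75932827-75978458, minus strand, 30 exons) had 1910 and 1588 counts in control and 3375 and 5338 in light retinas. Both light libraries exceeded both controls. Its mean was 124 ± 16.9 CPM in control and 225 ± 39.9 CPM in light retinas (SD, n = 2), a log2 fold change of 0.87 with a standard error of 0.17 and an interval of 0.48 to 1.25 (edgeR adjusted p = 0.0166). Kdr lost its call without control 1 (adjusted p = 0.0651), control 2 (0.118) or light 2 (0.141), with estimates of 1.01, 0.73 and 0.67.

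Flt1 (chr5:147561604-147726011, minus strand), which binds VEGF and the placental growth factor Pgf, had 678 and 706 counts in control and 901 and 1541 in light retinas. Light 1 was barely above the controls in CPM (52.7 against 48.2 and 49.7) while light 2 reached 73.2. Its log2 fold change of 0.37 had an interval of -0.02 to 0.75 (edgeR adjusted p = 0.192). Tek (chr4:94739289-94874976, plus strand), the receptor of the angiopoietins, had 46 and 34 counts in control and 55 and 63 in light retinas. In CPM the groups overlapped, with a log2 fold change of 0.13 and an interval of -0.66 to 0.93 (edgeR adjusted p = 0.838).

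Among the genes of endothelial identity, Vwf (chr6:125546774-125686679, plus strand), which encodes the adhesive protein stored in Weibel-Palade bodies, had 19 and 30 counts in control and 61 and 104 in light retinas. Light libraries lay above controls without overlap. Its means were 1.73 ± 0.539 and 4.25 ± 0.973 CPM (SD, n = 2), and its log2 fold change of 1.30, with a standard error of 0.40 and an interval of 0.43 to 2.17, just missed the threshold (edgeR adjusted p = 0.0571). Over the alternatives the adjusted p of Vwf ranged from 0.0164 with the replicate block to 0.330 without light 2.

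Pecam1 (chr11:106654217-106750628, minus strand), an adhesion molecule of endothelial junctions that platelets and leukocytes also carry, had 105 and 106 counts in control retinas, equal to 7.47 CPM in both, and 157 and 186 counts in the light libraries, equal to 9.18 and 8.84 CPM. The groups did not overlap, but the log2 fold change of 0.27 had an interval of -0.30 to 0.85 (edgeR adjusted p = 0.525). Cdh5 (chr8:104101625-104144511, plus strand), the cadherin of endothelial adherens junctions, had 39 and 31 counts in control and 36 and 70 in light retinas. Its groups overlapped, and its log2 fold change was 0.14 with an interval of -0.72 to 1.01 (edgeR adjusted p = 0.843). These intervals still allow a change of up to 1.80-fold for Pecam1 and 2.01-fold for Cdh5.

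Of the barrier genes, Cldn5 (chr16:18776847-18778262, plus strand, 1 exon), the main claudin of endothelial tight junctions, had 76 counts in control 1 and 33 in control 2, and 67 and 59 in the light libraries. Both light libraries lay between the controls in CPM. The log2 fold change was -0.20 with an interval of -1.16 to 0.76 (edgeR adjusted p = 0.793), and its sign turned to 0.03 when libraries were scaled by their total count, which moved the median of all genes tested from 0.0025 to 0.24. Plvap (chr8:71497765-71511752, minus strand), a protein of fenestral diaphragms that is low in barrier endothelium, had 65 and 34 counts in control and 80 and 100 in light retinas. In CPM the light libraries, at 4.68 and 4.75, were only just above control 1 at 4.62. The log2 fold change was 0.43 with an interval of -0.40 to 1.26 (edgeR adjusted p = 0.490).

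The calls rested on few libraries. Without control 1, 0 of the 10 genes and 4 of all genes tested were called, and without control 2 the counts were 0 and 57. Without light 1, 4 of the 10 genes (Icam1, Kdr, Vcam1 and Vwf) were called, against 14.5% of all genes, and without light 2 only Vcam1, against 3.42%. The 4 fold changes kept their direction each time. Scaling by total counts also gave 4 calls among the 10 genes, and moved the calls over all genes from 1079 higher of 1624 to 1930 higher of 2063.

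**Figure D2:**
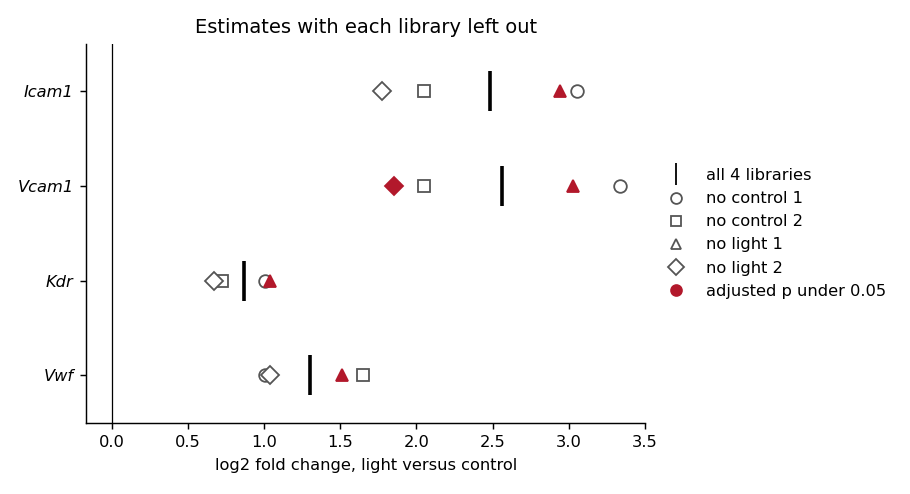
Log2 fold change of Icam1, Vcam1, Kdr and Vwf in light against control retinas (horizontal axis), with all 4 libraries (vertical bar) and with each library left out in turn (symbols, red where the adjusted p was under 0.05). All estimates are above 0, those without light 2 are the lowest or near the lowest in each gene, and none of the 4 genes is called without a control.

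To set the genes against Pecam1 and Cdh5, each count was divided by the summed count of that pair in the same library. This ratio was chosen with the values known and is a description without a test. Icam1 amounted to 11.1 and 5.84 counts per 100 counts of Pecam1 and Cdh5 in the controls, 25.9 and 53.9 in the light libraries, and 17.0 and 12.4 in minocycline A and B. Vcam1 amounted to 87.5 and 38.0 per 100 in the controls, 202 and 423 in the light libraries, and 96.7 and 92.2 with minocycline. The light libraries therefore stood above the other 4 libraries for both adhesion genes. Vwf went from 13.2 and 21.9 per 100 to 31.6 and 40.6, and was 24.4 and 32.5 with minocycline, which overlapped the light libraries. Kdr went from 1326 and 1159 per 100 to 1749 and 2085, and was 1591 and 1012 with minocycline. For Flt1, Tek, Plvap and Cldn5, the controls and the light libraries overlapped in this ratio, with means of 493 and 534 per 100 for Flt1 and of 28.4 and 26.6 for Tek. The denominators were 144 and 137 counts in control retinas, 193 and 256 in the light libraries and 271 and 243 with minocycline. Pecam1, which leukocytes and platelets also carry, gave 105 and 106 of these counts in control retinas and 157 and 186 in the light libraries. Other cells also make Icam1, Vcam1 and Kdr. The ratio is therefore not a level per amount of endothelium.

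**Figure D3:**
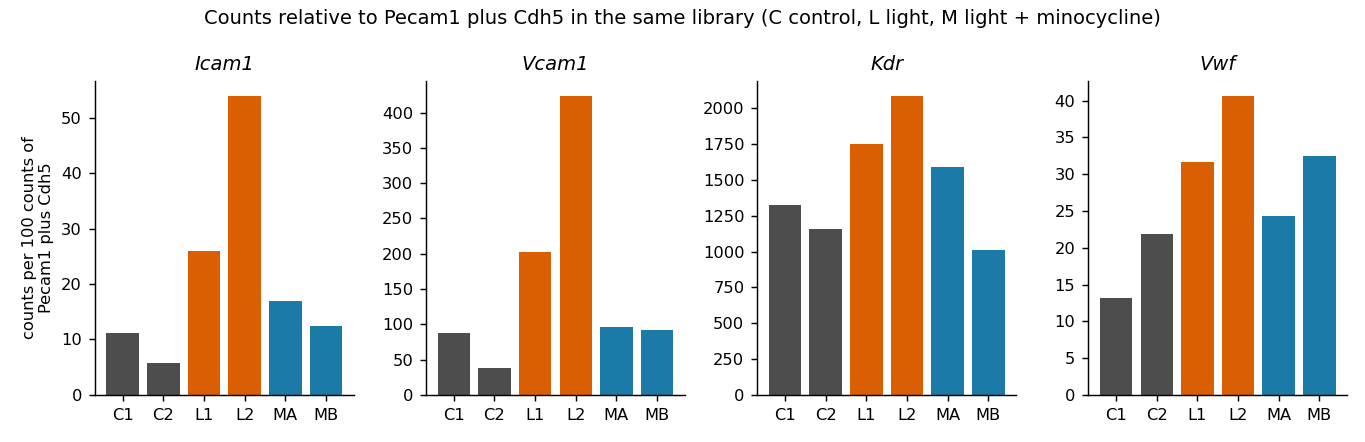
Counts of Icam1, Vcam1, Kdr and Vwf per 100 counts of Pecam1 plus Cdh5 in the same library (vertical axes from 0), with 1 bar for each of the control (C1, C2), light (L1, L2) and light plus minocycline (MA, MB) libraries. For Icam1, Vcam1 and Kdr both light bars are above the other 4, and for Vcam1 the minocycline bars, at 96.7 and 92.2, are close to control 1 at 87.5.

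The second comparison asked whether minocycline treatment of light-exposed mice changed these genes. None of the 10 passed the test: 0 were called, against 0.0542% of all 14750 genes tested and 0.0475% with the fold cutoff added. At an unadjusted p under 0.05 in edgeR the count was 3 of 10 genes (Vcam1, Icam1 and Cldn5) and 3117 of all genes, and DESeq2 called 1 of the 10, Vcam1, and 6.56% of all genes. The groups did not overlap for 6 genes, against 54.8% of all genes: Vcam1, Icam1 and Kdr were lower with minocycline, and Cldn5, Tek and Cdh5 higher. The median log2 fold change was -0.13, against 0.0062 for all genes.

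Vcam1 had 262 and 224 counts with minocycline, both below the 390 and 1084 of the light libraries despite larger totals. The mean was 11.6 ± 0.329 CPM (SD, n = 2), and the log2 fold change against the light group was -1.66 with a standard error of 0.39 and an interval of -2.62 to -0.70 (edgeR adjusted p = 0.0997). Its adjusted p was 0.000245 in DESeq2 and 0.00199 without light 1, the alternatives that called it. It was 0.341 and 0.404 without minocycline A and B, and without light 2 the log2 fold change was -0.97 (adjusted p = 0.277). Icam1 had 46 and 30 counts with minocycline and a mean of 1.80 ± 0.292 CPM (SD, n = 2). Its log2 fold change was -1.38 with a standard error of 0.46 and an interval of -2.47 to -0.30 (edgeR adjusted p = 0.154), and among the alternatives it was called only without light 1 (adjusted p = 0.0498). Without light 2 it was at -0.70 (adjusted p = 0.817). Kdr had 4312 and 2458 counts, and minocycline A, at 188 CPM, was close to light 1, at 197. Its log2 fold change was -0.49 with an interval of -0.99 to 0.01 (edgeR adjusted p = 0.243).

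Cldn5 had 116 and 123 counts with minocycline and at 5.05 and 6.52 CPM lay above both light libraries. Its log2 fold change against light was 0.80 with an interval of 0.01 to 1.60 (edgeR adjusted p = 0.232), and minocycline A was below control 1. Tek had 89 and 88 counts and a log2 fold change of 0.48, and Cdh5 had 84 and 64 counts and one of 0.39 (edgeR adjusted p = 0.450 and 0.600). Pecam1, with 187 and 179 counts, gave -0.01 with an interval of -0.58 to 0.56 (edgeR adjusted p = 0.985). For Flt1, with 1415 and 824 counts, Vwf, with 66 and 79, and Plvap, with 152 and 69, the libraries overlapped those of the light group. Their log2 fold changes were -0.24, -0.26 and 0.14, with edgeR adjusted p of 0.578, 0.742 and 0.864.

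The third comparison set light plus minocycline against control. Again 0 of the 10 genes were called, against 0.162% of all 14181 genes and 0.134% with the fold cutoff. At an unadjusted p under 0.05 in edgeR the count was 3 of 10 genes and 994 of all genes, and DESeq2 called 0 of the 10. The count was also 0 without control 1 and without control 2. All 10 estimates were above 0, with a median log2 fold change of 0.61 against 0.021 for all genes, and 6 genes did not overlap between the groups, against 39.9% of all genes. Icam1 was at 1.12 on the log2 scale with an interval of 0.06 to 2.18 (edgeR adjusted p = 0.689), Vwf at 1.06 with 0.15 to 1.97 (0.608) and Vcam1 at 0.93 with 0.03 to 1.82 (0.703). Without control 1 the estimates of Icam1 and Vcam1 were both 1.70, and without control 2 they were 0.71 and 0.43. Each pair of the 3 comparisons shares the libraries of 1 group.

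**Figure D4:**
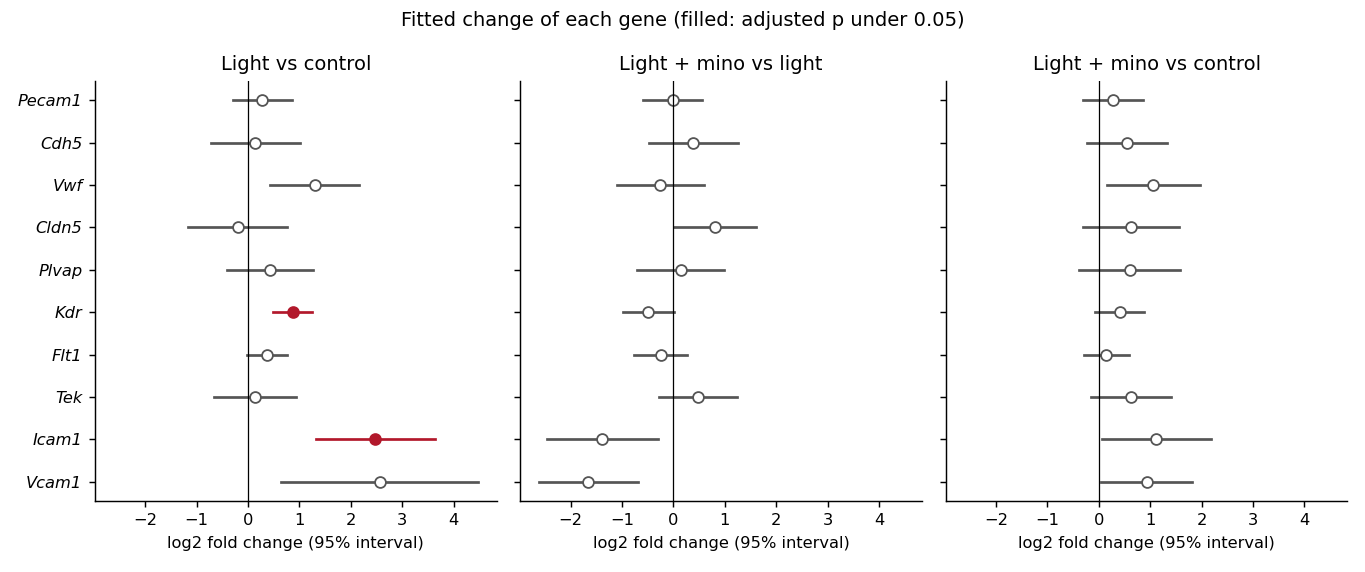
Log2 fold change (point) with its 95% interval (line) of each gene in the 3 comparisons, from edgeR, with red filled points where the adjusted p was under 0.05. Icam1, at 2.48, and Kdr, at 0.87, are called in light against control, and no gene is called in either comparison with minocycline (mino).

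Other genes of the vessel wall and of leukocytes that bind it were counted from lists. Like the members, these lists were chosen with earlier results of these data known. Their shares of calls are therefore a description and no independent test. In light against control, 27 of their 111 tested genes were called, where 11.3% of all genes were called in either direction and 7.52% higher. Of these 27 genes, 27 were still called without light 1 and 8 without light 2, settings in which 14.5% and 3.42% of all genes were called. Without control 2 only Podxl was still called, and without control 1 the count was 0. The values below use all 4 libraries. Of 26 further genes of endothelial identity, 19 were tested in light against control, 3 were called higher and 1 lower, with a median log2 fold change of 0.64. Cd93, a lectin-like receptor of endothelium and myeloid cells, had 24 and 17 counts in control and 53 and 169 in light retinas (1.95 on the log2 scale, edgeR adjusted p = 0.0356). Cd34, a sialomucin of endothelium and progenitors, went from 37 and 40 counts to 82 and 206 (1.43, edgeR adjusted p = 0.0406). Ecscr, a surface protein of endothelial cells, went from 6 and 7 to 26 and 84 (2.58, edgeR adjusted p = 0.0230). Podxl, which encodes podocalyxin and was the most abundant gene of the list, fell from 5166 and 4661 counts to 3012 and 3201 (log2 fold change -1.08, edgeR adjusted p = 0.00818). The list summed to 457 and 398 CPM in the controls and to 281 and 301 CPM in the light libraries. Podxl made up 367 and 328 CPM, and 176 and 152 CPM, of these sums. With minocycline Podxl was at 241 and 344 CPM. Cdh5, by contrast, was at 2.77 and 2.18 CPM in the controls. The part of cells other than endothelium in the level of Podxl was not tested. Of the 19 tested genes, 18 had estimates above 0 in light against control. Cd93 and Cd34 were not called with all 6 libraries in 1 fit (adjusted p = 0.0533 and 0.0534), nor Cd34 without robust estimation (0.0529). Without light 2, Cd93 was at 1.09, Cd34 at 0.82 and Ecscr at 1.71, and none of the 3 was called.

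For the barrier, 18 of 20 listed genes were tested, with 2 called higher, 0 lower and a median log2 fold change of -0.13, a share of calls near the 11.3% of all genes. Mfsd2a, the lipid transporter that suppresses transcytosis in barrier endothelium, had 47 and 57 counts in control and 104 and 262 in light retinas (1.34, edgeR adjusted p = 0.0448). Abcg2, an efflux pump, had 74 and 64 and then 139 and 248 counts (1.03, with an edgeR adjusted p just under the threshold). Both calls were lost without robust estimation (adjusted p = 0.0566 and 0.0604), with DESeq2 size factors and with all 6 libraries in 1 fit, and Mfsd2a was at 0.73 without light 2. In the Norrin and Wnt list, which maintains this barrier, 12 of 14 genes were tested and 3 called, against 11.3% of all genes. The ligand Ndp and the co-receptor Lrp5 were higher (1.24 and 1.21 on the log2 scale, edgeR adjusted p = 0.0280 and 0.0197), and the receptor Fzd4 was lower (-0.80, edgeR adjusted p = 0.0186). The list thus held calls in both directions.

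Among 10 VEGF and angiopoietin ligands, 8 were tested, 2 were called higher, against 7.52% of all genes, and 0 lower, with a median log2 fold change of 0.41. Pgf, the placental growth factor that binds Flt1, had 10 and 6 counts in control retinas, 47 and 88 in the light libraries and 16 and 17 with minocycline. It was higher after light by 2.61 on the log2 scale (edgeR adjusted p = 0.0135), and gave -2.10 with minocycline against light (edgeR adjusted p = 0.0709). Angptl4, an angiopoietin-like protein that acts on lipase and vessels, was higher by 2.12 (edgeR adjusted p = 0.0365, but 0.113 in DESeq2 and 0.0508 with all 6 libraries in 1 fit), with 3.09 without control 1 and 1.52 without control 2. Vegfa itself had 126 and 145 CPM in the controls, 132 and 135 in the light libraries and 107 in both minocycline libraries. Of 14 co-receptors and Notch genes 13 were tested. The VEGF and semaphorin co-receptor Nrp1 (1.35, edgeR adjusted p = 0.0213) and the semaphorin receptor Plxnd1 (0.92, edgeR adjusted p = 0.0352) were higher and the Notch ligand Jag1 was lower (-0.62, edgeR adjusted p = 0.0415). Jag1 was at -0.39 and not called when libraries were scaled by total counts (adjusted p = 0.143), and its call was also lost without robust estimation (0.0529) and with all 6 libraries in 1 fit (0.0694).

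Of 16 further genes for leukocyte adhesion on vessels 10 were tested, with 2 called higher, against 7.52% of all genes, 0 lower and a median log2 fold change of 0.40. Cd44, a hyaluronan receptor that is also made by Müller cells and leukocytes, had 348 and 234 counts in control and 842 and 1414 in light retinas (edgeR adjusted p = 0.0108). Cd99l2, which takes part in leukocyte passage through the vessel wall, was higher by 0.76 (edgeR adjusted p = 0.0278, and 0.0713 with all 6 libraries in 1 fit). The selectins and the other genes of this list did not pass the test or the filter. Of 10 leukocyte counter-receptors 7 were tested and 4 called higher, against 7.52% of all genes. Itgb2, the β2 integrin chain that pairs to bind ICAM-1, had 5 and 14 counts in control retinas, 150 and 638 in the light libraries and 41 and 11 with minocycline (4.86 after light, edgeR adjusted p = 0.0469). Itgal, the α chain of LFA-1, had 0 and 2 counts, then 18 and 38, and 5 and 2 with minocycline (edgeR adjusted p = 0.0157 after light). Selplg, the P-selectin ligand, and Itgb1, the β chain of VLA-4 that many cell types make, were higher by 2.28 and 0.81 (edgeR adjusted p = 0.0200 and 0.0408). Without light 2, Itgb2 was at 3.69 and Selplg at 1.53, and without control 2 Itgb2 was at 5.75. The call of Itgb2 was lost without the filter (adjusted p = 0.152), and that of Selplg with all 6 libraries in 1 fit (0.0808). Itgb2 is also a gene of resident microglia.

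The list of endothelial haemostasis and tone had 6 of 13 tested genes called higher, against 7.52% of all genes, 0 lower and a median log2 fold change of 0.91. Procr, the endothelial receptor of protein C, had 0 counts in both controls and 11 and 27 in the light libraries, which is at least 9.07-fold higher against a floor of 3 counts over both controls (edgeR adjusted p = 0.0147). Ptgs1, which encodes cyclooxygenase 1, and Tfpi, the inhibitor of tissue factor, were higher after light by 2.21 and 1.80 (edgeR adjusted p = 0.0299 and 0.0278). Ptgs1 was at 1.35 without light 2. With minocycline against light, 0 genes of these vascular lists were called.

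Markers of other retinal cells moved with the same groups. The 10 microglia and macrophage genes, all detected in every library, summed to 27.8 and 36.7 CPM in the controls, 288 and 912 in the light libraries, and 61.5 and 28.4 with minocycline. They were highest in light 2, where Icam1, Vcam1 and Kdr were also highest, and 4 of 10 were called higher in light against control, where 7.52% of all genes were. The 8 Müller cell and astrocyte genes summed to 1755 to 2552 CPM in the controls, 3197 to 4439 in the light libraries and 2510 to 3194 with minocycline, with 4 of 8 called higher after light, against the same 7.52%. The 10 rod genes summed to 82500 to 105000 CPM in the controls and 43750 to 61560 in the light libraries, with 1 of 10 called lower, near the 11.3% of all genes called in either direction, and to 89590 to 96770 with minocycline.

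Markers of circulating cells were low. The 10 neutrophil and lymphocyte genes in the table, none of which passed the filter, summed to 0.318 to 1.90 CPM, and 10 blood and platelet genes to 3.27 to 6.90 CPM, with 5 to 7 of them at 0 in each library. Itga2b, the platelet integrin chain, made up part of that sum, with 59 to 78 counts in each library. Corneal and stromal markers were higher in both minocycline libraries than in the others. The 10 corneal and conjunctival genes summed to 5.21 to 21.8 CPM without it and to 211 and 298 CPM with it. Of 9 tested, 2 were called higher with minocycline both against light and against control, where 0.0542% and 0.162% of all genes were called. The stromal list stood at 15.8 to 21.0 CPM without it and at 45.5 and 158 CPM with it, and the 12 pigment cell genes at 154 to 422 CPM without it and at 416 and 1564 CPM with it, which overlapped. In the stromal and pigment lists 0 genes were called. The part of these cells in the values of Icam1, Vcam1, Kdr, Cldn5 and Tek was not tested. Nor was the part of microglia and other cells in the genes of the vascular lists, such as Ptgs1 and Selplg.

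**Figure D5:**
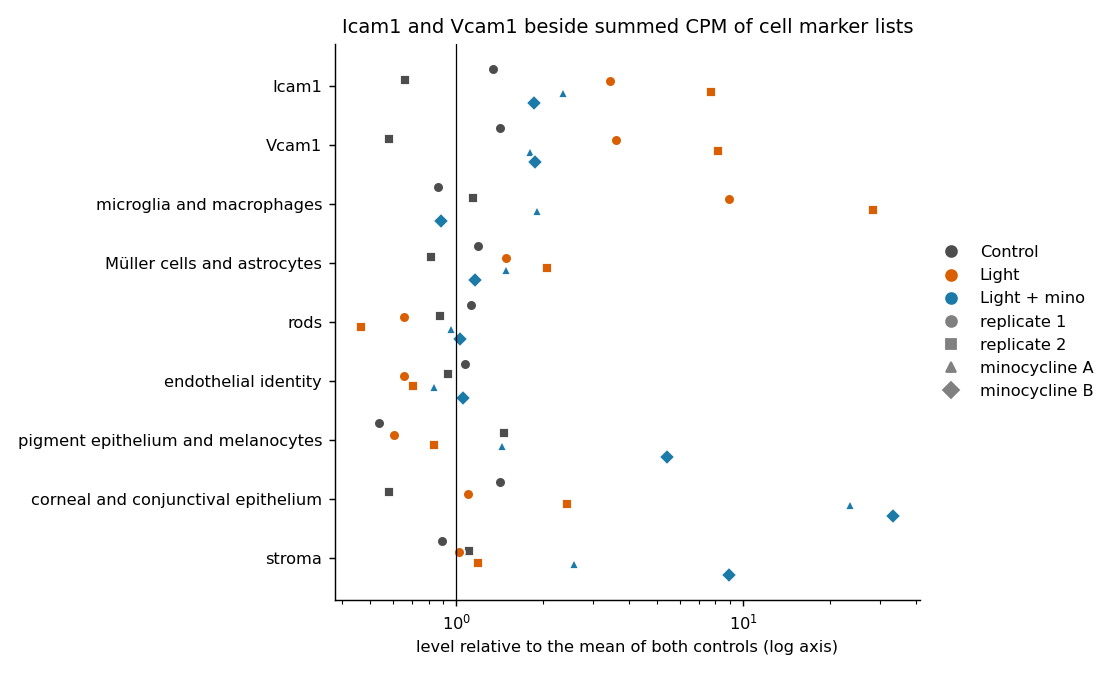
CPM of Icam1 and Vcam1 and summed CPM of 7 marker lists in each library, divided by the mean of both controls (horizontal log axis, vertical line at the control mean). The microglia list, like Icam1 and Vcam1, is highest in both light libraries, whereas the corneal and stromal lists are highest in both minocycline (mino) libraries and the pigment list in minocycline B. Most of the endothelial identity sum is Podxl.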

How the data were processed

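Retinal mRNA of 6 libraries was measured by stranded RNA-seq. The authors used STAR (mm10 genome) and the RNA Express workflow, and the deposited counts per gene are whole raw counts without normalization, although the data statement of the study calls them normalized. Of 23420 genes, 4791 were 0 everywhere. Versions, gene annotation and use of the strand are not given in the sources used here. Reads were not analysed here. Of the value columns, 0 were left unused.

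Each pair of groups was fitted with edgeR 4.0.16 under R 4.3.3 (low counts removed by filterByExpr, TMM scaling, robust quasi-likelihood F test, Benjamini-Hochberg adjustment over all genes tested, threshold 0.05). Fold changes are on the log2 scale with 95% intervals. CPM used TMM over 6 libraries. Levels per kb used the exon union of the basic GENCODE annotation on GRCm38. Alternatives were DESeq2 1.42.0, its size factors, total library size, no filter, no robust estimation, 1 fit of all libraries, the replicate block, the fold cutoff of the study and each library left out. The scripts were tested on simulated data. Depth of 15205930 to 22856922 counts limits precision for genes with few counts, and floors cover counting error only, since PCR copies are not independent molecules.

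The members and lists were chosen with earlier results of these data known. Named genes were the 10 members and, from each vascular list and comparison, up to 4 called genes with the largest change; where none was called, the 2 tested genes with the smallest p could be named. Vegfa, from that last part, is given with its levels. Lists of other cell types are given by counts and sums. Older symbols were matched, and Hbb-bs and Ly6g were not matched. Of the called genes that this rule selects, 1 is not reported here.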

Additional observations from a re-analysis of the deposited data

How the results depend on the processing

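In light against control, the count of 2 called members became 4 with total library size and 1 with the fold cutoff of the study, and ranged from 0 to 4 with each library left out. It was 3 with the replicate block, where Vwf joined Icam1 and Kdr. The replicate numbers did not pair the libraries (correlation of the differences between replicates -0.0107 over 14713 genes). No paired analysis was possible because of missing replicate numbers in the comparisons with minocycline. In light plus minocycline against light, the count of 0 became 1 with DESeq2 (Vcam1) and ranged from 0 to 2 with a library left out. Against control it stayed at 0 in every alternative. The changes whose signs turned were not called. With total library size, Cldn5 in light against control was 0.032 and Plvap in light plus minocycline against light -0.020. With a library left out, light against control gave -0.69 to 0.52 for Cldn5, -0.23 to 0.43 for Cdh5 and -0.080 to 0.37 for Tek. Light plus minocycline against light gave -0.14 to 0.11 for Pecam1, -0.56 to 0.012 for Vwf and -0.33 to 0.50 for Plvap, and light plus minocycline against control -0.13 to 0.34 for Flt1 and -0.17 to 1.78 for Itgb2. Total library size moved the median of all genes to 0.24 in light against control and to -0.17 in light plus minocycline against light. Over all genes, calls in light plus minocycline against light went from 8 to 1211 with DESeq2, 732 without the filter, 488 with all libraries in 1 fit and 0 with total library size. In light plus minocycline against control they went from 23 to 167, 187, 0 and 24. The cause was not tested. With 2 libraries per group, an interval that spans 0 leaves the changes it covers undecided.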

Other observations

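Mural cells, the pericytes and smooth muscle that ensheath the endothelium, were counted from a list of 14 genes. In light against control 11 were tested and 1, Cspg4, was called, a share near the 11.3% of all genes. Cspg4 encodes the NG2 proteoglycan of pericytes and, separately, of glial progenitors. It had 17 and 21 counts in control retinas, 76 and 262 in the light libraries, and 28 and 27 with minocycline. Its log2 fold change after light was 2.66 (edgeR adjusted p = 0.0196), and 1.72 without light 2. It was not called without control 1 or without control 2. Its change with minocycline against light was -2.66 (edgeR adjusted p = 0.0741). Cnn1, the calponin of smooth muscle, had 0 and 3 counts in control and 2 and 0 in light retinas, but 24 and 50 with minocycline (edgeR adjusted p = 0.0709 against light and 0.199 against control). Notch3, the Notch receptor of mural cells, had 31 and 32 counts in control retinas, 49 and 51 in the light libraries and 106 and 103 with minocycline (1.22 on the log2 scale against control, edgeR adjusted p = 0.321). The summed list stood at 977 and 889 CPM in the controls, 705 and 559 in the light libraries, and 993 and 1287 with minocycline. A sum is carried by its most abundant genes, and single genes did not follow it in light against control. There 7 of the 11 tested genes had estimates above 0, with a median log2 fold change of 0.25. In light plus minocycline against control it was 13 of 13, with a median of 1.22.

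Endothelial genes that were highest with minocycline did not pass the test either. Emcn, which encodes endomucin of veins and capillaries, had 9 and 6 counts in control retinas, 6 and 14 in the light libraries and 36 and 25 with minocycline (1.48 on the log2 scale against control, edgeR adjusted p = 0.450). Clec14a, a lectin-like surface protein of endothelium, had 6 and 5, then 13 and 9, and 20 and 44 (2.05 against control, edgeR adjusted p = 0.406). Klf4, a transcription factor of endothelium that epithelial cells also make, had 89 and 50, then 30 and 69, and 213 and 460 (2.75 against light, edgeR adjusted p = 0.0861). The corneal and stromal lists were also highest in the minocycline libraries, and their part in these values was not tested.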
